A study of Homo sapiens with 6 samples.

Results

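The BCL2 family is described here through 10 of its genes, taken by symbol from the 62703 gene IDs of the count files: the pro-survival genes BCL2, BCL2L1 and MCL1, the effector genes BAX and BAK1, and the BH3-only genes BCL2L11, BBC3, PMAIP1, BID and BAD. Each symbol matched 1 ID, and all 10 passed the filter on low counts that left 16929 genes for testing. They were measured in SEM, an established human leukaemia line of B-cell precursors that carries the KMT2A::AFF1 fusion. Libraries of total RNA came from cells that received 2 Dicer-substrate siRNAs over the back-splice junction of AK_8_2, a circular RNA of the fusion gene (knock-down, KD, n = 3), or a commercial duplex with no target (negative control, NC, n = 3). Both groups had the lipid reagent and were transfected in reverse and again, forward, 24 h later. The series calls the replicates independent, all 6 libraries are of 1 cell line, and the p-values below rest on the spread between these libraries. The question put to the data was where the balance of pro-survival and pro-death transcripts stands in SEM, and whether it differs between KD and NC.

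Proteins of this family decide whether the outer mitochondrial membrane is opened, which releases cytochrome c and commits a cell to apoptosis. BCL2, BCL-xL (from BCL2L1) and MCL1 hold the membrane closed by binding the other members, BAX and BAK form the pores, and BH3-only proteins either occupy the pro-survival proteins or activate the effectors directly. Lymphoid cells are known for their dependence on BCL2 and MCL1, which are targets of BH3-mimetic drugs. Transcript counts do not measure the proteins, several of which are controlled by cleavage, phosphorylation or degradation, and a gene count pools isoforms, including those of BCL2L1, MCL1 and BCL2L11 that are known to differ in activity.

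The libraries held 14750579 to 26694160 gene counts. Both libraries numbered 1 stood apart, with 48.6% and 50.03% of their records in no annotated feature (11.3% to 17.3% in the other 4), and KD replicate 3 had 6.79% of its gene counts on mitochondrial ribosomal RNAs (at most 1.34% elsewhere). Of 10 B-cell precursor markers, 9 were above 1 CPM (counts scaled to a common library size) in every library, DNTT being the exception, and the list summed to 1555 to 1610 CPM in the replicate 1 libraries and 1933 to 2077 CPM in the others. Of 6 T-cell markers 1 (TRAC) was above 1 CPM in every library, of 6 myeloid markers 2, of 4 erythroid markers 0 and of 5 fibroblast or epithelial markers 1. The summed level of the last list was 20.4 and 22.2 CPM in replicate 1 and 3.44 to 6.19 CPM elsewhere, and that of the erythroid list 1.99 and 2.53 CPM against at most 0.217 CPM. The part of these differences between replicate numbers in the values below was not tested. Gene comparisons are therefore given from a fit with the replicate number as a block, for the members beside a fit with group only. For most members and for the balance, differences within replicate numbers are also given, although the labels state no pairing.

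No BCL2 family gene differed detectably between KD and NC. In bulk RNA such as this, a lower share of cells with a transcript and less of it per cell cannot be told apart. By edgeR's quasi-likelihood test 0 of the 10 members passed (Benjamini-Hochberg adjusted p over all tested genes under 0.05), as did 0 of all 16929 genes (0%), with 52 genes (0.307%) and none of the members at an unadjusted p under 0.05. Once the replicate number was added as a block, 29 genes (0.171%) and again none of the members passed. The median log2 fold change of the members, KD over NC, was -0.02 without and -0.03 with the block, beside -0.00355 and -0.00509 over all tested genes. The point estimate was lower in KD for 8 of the 10 with either fit, where 51.4% and 52% of all tested genes were lower. In none of the 10 did the CPM ranges of KD and NC separate, which they did for 3.43% of tested genes.

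**Figure D1:**
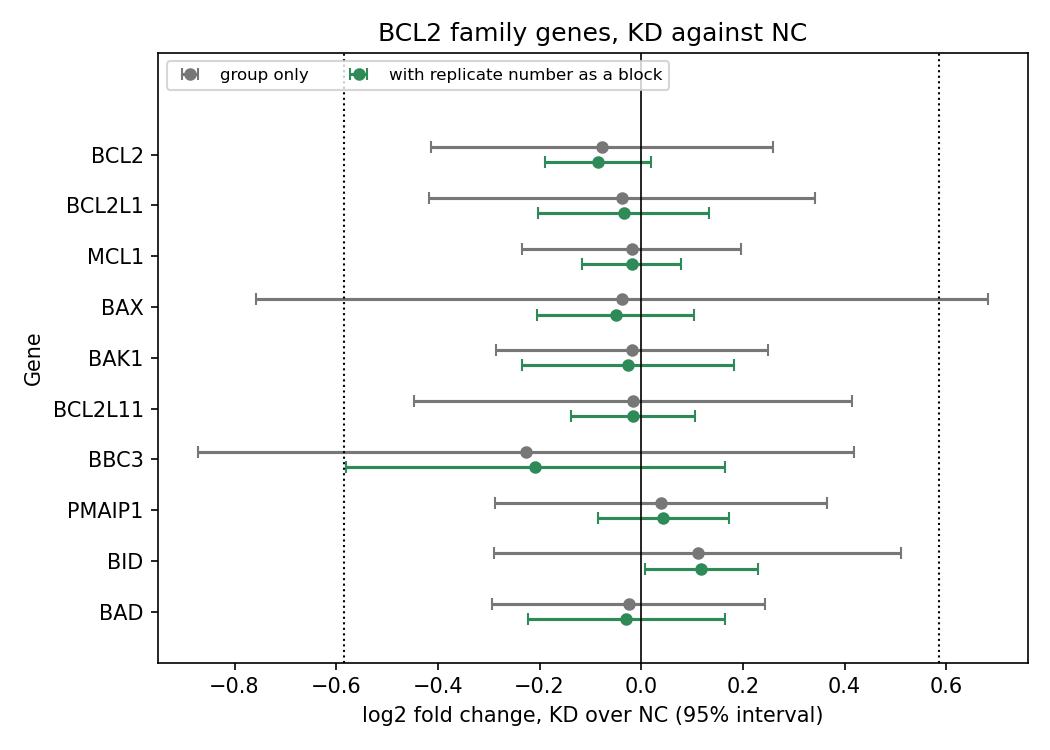
Log2 fold change, KD over NC, of each gene on the horizontal axis with its 95% interval, from the fit with group only (grey) and the fit with the replicate number as a block (green); dotted lines mark a 1.5-fold change in either direction. All intervals of the blocked fit lie between the dotted lines, and those of BAX and BBC3 cross one or both lines in the fit with group only.

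The intervals bound the differences that could have been missed. Without the block, 8 of 10 members had a 95% interval within 1.5-fold up or down (50.7% of all tested genes did), BAX and BBC3 being the exceptions. With the block all 10 did (66.5% of all tested genes), and apart from BBC3 these intervals ran from no lower than -0.23 to no higher than 0.23 on the log2 scale.

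Among the pro-survival genes, BCL2 (ENSG00000171791.14, chromosome 18, 63123346 to 63320128, minus strand, GRCh38), which encodes the founding member of the family, had 258, 349 and 322 CPM in the KD libraries, in the order of their replicate numbers, and 295, 339 and 346 CPM in NC. Replicate 1 was the lowest library of each group and the groups overlapped. The means were 309 ± 46.7 CPM in KD and 327 ± 27.6 CPM in NC (SD, n = 3 each), and the log2 fold change was -0.08 with a 95% interval from -0.41 to 0.26 (edgeR, adjusted p 1.00). With the block the estimate was -0.08 (SE 0.05, interval -0.19 to 0.02, edgeR adjusted p 0.999). Within replicate numbers 1, 2 and 3 the log2 difference was -0.19, 0.04 and -0.10, so the pairs did not share a direction.

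MCL1 (ENSG00000143384.14, chromosome 1, 150574551 to 150579738, minus strand), whose protein and messenger are both known for rapid turnover, was the steadiest member. It had 178, 191 and 194 CPM in KD and 185, 194 and 191 CPM in NC, a highest value 1.09-fold above the lowest over the 6 libraries. Its log2 fold change was -0.02, with an interval from -0.23 to 0.20 without and from -0.12 to 0.08 with the block. The differences within pairs were -0.05, -0.02 and 0.02.

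BCL2L1 (ENSG00000171552.14, chromosome 20, 31664452 to 31723989, minus strand), the gene of BCL-xL and of the shorter BCL-xS, ranged from 22.8 to 29.7 CPM in KD and from 21.9 to 30.6 CPM in NC. Replicate 2 was the highest library of both groups, and the log2 fold change was -0.04 (interval -0.42 to 0.34; with the block -0.03, interval -0.20 to 0.13). The antisense gene ABALON covers 43.0% of the exon length of BCL2L1, and with the strand setting of the counting not given, reads of one cannot be told apart from reads of the other there. ABALON itself was listed at 0.118 to 0.262 CPM in the replicate 2 and 3 libraries and at 1.74 and 2.59 CPM in NC and KD replicate 1.

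The effectors BAX and BAK1 encode the pore-forming proteins and differed from each other in how they varied. BAX (ENSG00000087088.21, chromosome 19, 48954815 to 48961798, plus strand), a known p53 target, had 20.6, 41.8 and 39.4 CPM in the KD libraries, in the order of their replicate numbers, and 24.1, 41.1 and 39.1 CPM in NC. The libraries numbered 1 held the lowest value of each group, by 0.97 log2 units below the mean of replicates 2 and 3 in KD and 0.73 in NC, while the 4 other libraries lay within 1.07-fold of each other. BAX had the widest range of the 10 members, 2.03-fold over 6 libraries. Its log2 fold change of -0.04 had an interval from -0.76 to 0.68, against -0.21 to 0.10 around -0.05 with the block. The differences within pairs were -0.23, 0.02 and 0.01.

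BAK1 (ENSG00000030110.14, chromosome 6, 33572547 to 33580293, minus strand) ranged from 14.0 to 17.3 CPM in KD and from 15.5 to 16.8 CPM in NC, and replicate 1 did not stand apart. Its log2 fold change was -0.02 (interval -0.29 to 0.25; with the block -0.03, interval -0.23 to 0.18), and the pairs differed in sign (0.11, -0.04 and -0.15).

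The sequences upstream of these genes are shown for the pair of effectors, which share a function and differed in level and in spread, and below for PMAIP1 and BBC3, the BH3-only members furthest apart in mean NC RPKM. Each stretch is the part of the RefSeq promoter window (GRCh38.p14, 250 bases before to 50 after the annotated start) that lies outside every GENCODE 29 transcript of the gene, read 5′ to 3′ on the gene's strand. Capitals mark GC boxes, searched as GGGCGG and CCGCCC. The stretch of BAX is at chr19:48954625-48954814 (plus strand) and that of BAK1 at chr6:33580294-33580526 (minus strand).
BAX: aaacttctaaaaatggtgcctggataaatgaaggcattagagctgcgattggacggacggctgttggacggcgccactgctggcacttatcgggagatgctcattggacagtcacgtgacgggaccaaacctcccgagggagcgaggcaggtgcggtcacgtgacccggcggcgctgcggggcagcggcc
BAK1: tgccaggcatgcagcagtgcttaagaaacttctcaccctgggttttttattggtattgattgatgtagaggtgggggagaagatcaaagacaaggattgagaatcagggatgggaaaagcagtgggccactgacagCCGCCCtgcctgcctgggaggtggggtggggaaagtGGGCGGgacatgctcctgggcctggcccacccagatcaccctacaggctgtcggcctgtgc
The BAX stretch held 0 GC boxes and 2 CCAAT boxes (CCAAT or ATTGG), and the BAK1 stretch 2 GC boxes and 1 CCAAT box. Over the whole 300-base window both genes had 2 GC boxes and 2 CCAAT boxes.

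The BH3-only genes PMAIP1 and BBC3 encode NOXA and PUMA, both known as targets of p53, and had the highest and the lowest mean RPKM of the BH3-only members in NC. Without replicate 1 the NC mean of BID was above that of PMAIP1 (24.7 against 23.8 RPKM), and BID was the higher in KD replicates 2 and 3 and NC replicate 3. With the longest transcript as the length BID was also above PMAIP1 (39.8 against 29.4 RPKM), and BBC3 was again the lowest. PMAIP1 (ENSG00000141682.12, chromosome 18, 59899948 to 59904306, plus strand), whose protein binds MCL1, had 65.2, 57.3 and 54.1 CPM in KD and 65.4, 58.5 and 48.0 CPM in NC. Replicate 1 was the highest library of both groups. The log2 fold change was 0.04 (interval -0.29 to 0.37; with the block 0.04, interval -0.09 to 0.17), and the differences within pairs were -0.0034, -0.03 and 0.17.

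BBC3 (ENSG00000105327.18, chromosome 19, 47220822 to 47232766, minus strand), whose protein binds all pro-survival members, was the least abundant of the 10, with 71, 107 and 68 counts in KD and 90, 97 and 91 counts in NC. These corresponded to 4.00, 4.20 and 3.57 CPM in KD and 5.60, 4.22 and 3.98 CPM in NC. NC replicate 1 was the highest library and the groups overlapped. BBC3 had the lowest point estimate of the members, a log2 fold change of -0.23 with an interval from -0.87 to 0.42, and with the block -0.21 (SE 0.18, interval -0.58 to 0.17, edgeR adjusted p 0.999). Without NC replicate 1 the estimate of the fit with group only was -0.06, and BAX (-0.24), BCL2 (-0.15) and BCL2L11 (-0.14) were then lower. That fit kept KD replicate 1. With the block and without pair 1 the estimate of BBC3 was -0.08, and BAK1 (-0.09) was lower. BBC3 was lower in KD in all 3 pairs, by -0.48, -0.0055 and -0.15. The labels state no pairing, however, and KD replicate 2 (4.20 CPM) lay above NC replicate 3 (3.98 CPM). At these counts a difference of 1.5-fold was inside the interval of the fit without the block.

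The stretch of PMAIP1 is at chr18:59899746-59899947 (plus strand) and that of BBC3 at chr19:47232767-47232917 (minus strand), with capitals again marking GC boxes.
PMAIP1: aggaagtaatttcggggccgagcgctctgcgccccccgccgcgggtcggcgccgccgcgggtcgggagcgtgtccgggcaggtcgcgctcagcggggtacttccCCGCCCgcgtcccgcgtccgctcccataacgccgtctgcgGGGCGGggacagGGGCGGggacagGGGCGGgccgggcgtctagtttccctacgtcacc
BBC3: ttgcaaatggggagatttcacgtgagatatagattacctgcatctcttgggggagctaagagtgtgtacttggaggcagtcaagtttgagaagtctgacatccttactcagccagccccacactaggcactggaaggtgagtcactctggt
The PMAIP1 stretch was 76.2% G and C with 4 GC boxes, and the BBC3 stretch 49.0% with 0. Over the whole 300-base window BBC3 had 1 CCAAT box, which the printed stretch does not hold. Windows were found for 9 members, 15 in all because some genes have several starts. Windows of the same gene can overlap, as those of BID and BAD did, so a box can be counted more than once. GC boxes occurred in 11 of the 15 (45.0% of all 35116 windows of that length), CCAAT boxes in 6 (34.6%) and the TATA box, searched as TATAAA and TTTATA, in 1 window of BCL2L1 (11.5%), and none of these motifs is contained in another. A match describes the letters only, and start sites used in SEM were not measured.

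BID (ENSG00000015475.19, chromosome 22, 17734138 to 17774770, minus strand), which links death receptors to mitochondria once caspase 8 has cleaved its protein, was the 1 member higher in KD in all 3 pairs. It had 91.1, 117 and 114 CPM in KD and 78.3, 112 and 108 CPM in NC, with replicate 1 the lowest library of each group. Within each number KD was above NC, by 0.22, 0.07 and 0.07 log2 units, although the ranges of the groups overlapped. The log2 fold change was 0.11 (interval -0.29 to 0.51). It was -0.03 without NC replicate 1, a fit that kept KD replicate 1, and 0.07 with the block and without pair 1. With the block and all pairs it was 0.12 (SE 0.05, interval 0.01 to 0.23), with an unadjusted p of 0.0395 that did not pass over all genes (edgeR adjusted p 0.982). BID was the 1 member at an unadjusted p under 0.05 in that fit, where 4.97% of all tested genes were. Of the 10 members 2, BID and BBC3, kept a direction in all pairs, where 25.7% of tested genes did so in either direction.

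BCL2L11 (ENSG00000153094.24, chromosome 2, 111119378 to 111168447, plus strand) encodes BIM, the BH3-only protein that binds every pro-survival member and is induced by glucocorticoids in lymphoid cells. It had 61.6, 89.0 and 83.2 CPM in KD and 64.0, 82.1 and 90.3 CPM in NC, and replicate 1 was again the lowest library of each group. The log2 fold change was -0.02 (interval -0.45 to 0.41; with the block -0.02, interval -0.14 to 0.11), with differences of -0.05, 0.12 and -0.12 within pairs. The long non-coding gene MIR4435-2HG, on the other strand, covers 10.9% of its exon length and stood at 20.3 and 23.6 CPM in replicate 1 and 7.31 to 9.90 CPM elsewhere.

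BAD (ENSG00000002330.14, chromosome 11, 64269830 to 64284704, minus strand), held inactive by phosphorylation downstream of growth factor signalling, ranged from 16.4 to 19.8 CPM in KD and from 16.8 to 19.3 CPM in NC. Its log2 fold change was -0.03 (interval -0.29 to 0.24; with the block -0.03, interval -0.22 to 0.16). Exons of GPR137 on the other strand cover 23.7% of its exon length.

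**Figure D2:**
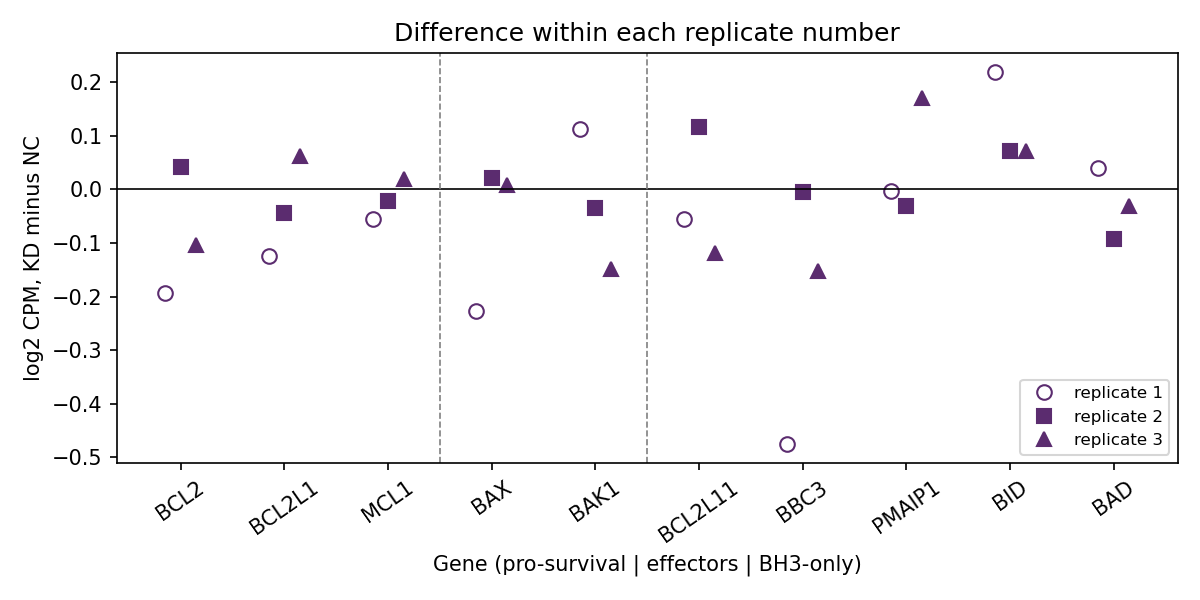
Difference in log2 CPM, KD minus NC, within each replicate number (vertical axis) for each gene, with replicate 1 as open circles, 2 as squares and 3 as triangles; dashed lines separate pro-survival, effector and BH3-only genes. BID lies above 0 and BBC3 below 0 in all 3 pairs, and the other genes have pairs on both sides of 0.

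For all 10 members the difference between replicate 1 and the other numbers was larger in size than the log2 fold change between KD and NC, a description with no test. The share of all tested genes with this pattern was not computed, so it is not shown to be particular to the family. In both groups 6 members (BCL2, BCL2L1, MCL1, BAX, BCL2L11 and BID) were lower in replicate 1 than the mean of replicates 2 and 3, 3 (BBC3, PMAIP1 and BAD) were higher, and BAK1 went in opposite directions. BAX, BCL2L11 and BID were lower by over 0.4 log2 units (-0.85, -0.45 and -0.42). These 3 of 10 are a larger share than the 12.1% of all tested genes, a difference that was not tested. The median size of the difference within a pair was 0.12, 0.04 and 0.09 log2 units over the members in replicates 1, 2 and 3, and 0.13, 0.13 and 0.14 over all tested genes.

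Levels of different genes were compared as RPKM, CPM divided by the exon length in kilobases. In NC, MCL1 was highest at 43.4 ± 1.03 RPKM (SD, n = 3), above 94.4% of the 16266 tested genes with a length, and no library of it overlapped another member. BCL2 (27.8 ± 2.35), PMAIP1 (25.7 ± 3.91) and BID (22.4 ± 4.14) followed, and neighbours in this order overlapped. BAX (13.5 ± 3.60), BCL2L11 (11.8 ± 2.02) and BAD (10.6 ± 0.727) formed the next overlapping run, and BCL2L1 (7.85 ± 1.32) and BAK1 (7.28 ± 0.31) another. Exons on the other strand cover 43.0% of the exon length of BCL2L1, 23.7% of that of BAD and 10.9% of that of BCL2L11. The strand setting of the counting is not given, and the part of this overlap in the levels was not tested. BBC3, at 1.45 ± 0.274 RPKM, was below every other member in all 6 libraries and above 30.2% of tested genes.

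**Figure D3:**
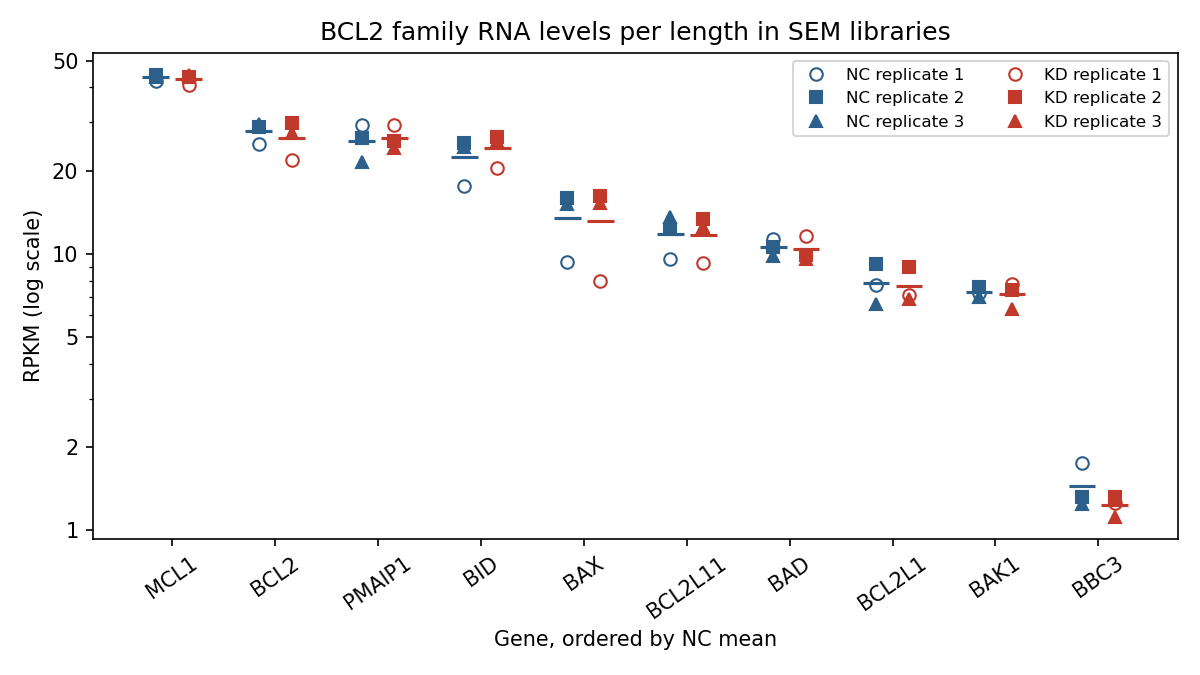
RPKM of each gene on a log axis in the 3 NC (blue) and 3 KD (red) libraries, with a bar at the group mean; replicate 1 is drawn as open circles, 2 as squares and 3 as triangles. MCL1 lies above and BBC3 below all other members in every library, and the replicate 1 points of BAX, BCL2L11 and BID lie below those of the other 2 replicates.

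KD libraries held nearly the same levels, with MCL1 at 42.9 ± 1.91, BCL2 at 26.3 ± 3.97, PMAIP1 at 26.3 ± 2.58, BID at 24.2 ± 3.20 and BBC3 at 1.23 ± 0.102 RPKM (SD, n = 3). The levels depend on the length used. With the longest annotated transcript in place of all exons, NC means rose by over 1.5 times for BCL2 (43.8), BID (39.8), BAX (25.6) and BBC3 (2.50), BID moved above PMAIP1 (29.4) and BAD (15.6) above BCL2L11 (15.1), while MCL1 (48.3) and BCL2 kept the first ranks and BBC3 the last.

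The balance of the family was described in 2 ways, neither of which carries a test. The first was the mean log2 CPM of the 3 pro-survival members minus that of the 7 pro-death members, in which every gene has equal weight. It was 1.92, 2.00 and 1.96 in the KD libraries and 1.99, 2.01 and 1.94 in NC, so the groups overlapped. CPM is not divided by exon length, which ran from 1708 bases for BAD to 11765 for BCL2. The level of this measure therefore does not say which side was higher, and only its differences between libraries are read. KD minus NC was -0.07, -0.01 and 0.02 within the numbers, and -0.02 between group means of 1.96 ± 0.04 and 1.98 ± 0.04 (SD, n = 3 each). Against the effectors alone the mean difference was -0.0020, and against the BH3-only members alone -0.03.

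The second was the ratio of summed RPKM, in which abundant genes weigh most. Pro-survival over pro-death members gave 0.796, 0.820 and 0.831 in the KD libraries and 0.872, 0.831 and 0.861 in NC. In every library the sum of the 7 pro-death members (86.1 to 100.2 RPKM) thus exceeded that of the 3 pro-survival members (69.7 to 82.3 RPKM). Which sum was larger depended on single genes. Without BID the log2 ratio was positive in every library (0.056 to 0.22), as it was without PMAIP1 (0.14 to 0.40). With all members the ratio was lower in KD within each number, by -0.13, -0.02 and -0.05 log2 units. The highest KD library (0.8308) lay just under the lowest NC library (0.8309). Without BID the pairs were -0.08, 0.00088 and -0.04, and without MCL1 they were -0.20, 0.0052 and -0.10. All 3 pairs were lower in KD without BCL2 (-0.09, -0.04 and -0.0042) and without PMAIP1 (-0.15, -0.03 and -0.0055). The groups overlapped in each of these 4 alternatives. With the longest transcript as the length they did not overlap, and the pairs were -0.14, -0.02 and -0.06. These alternatives were chosen after the values were seen.

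**Figure D4:**
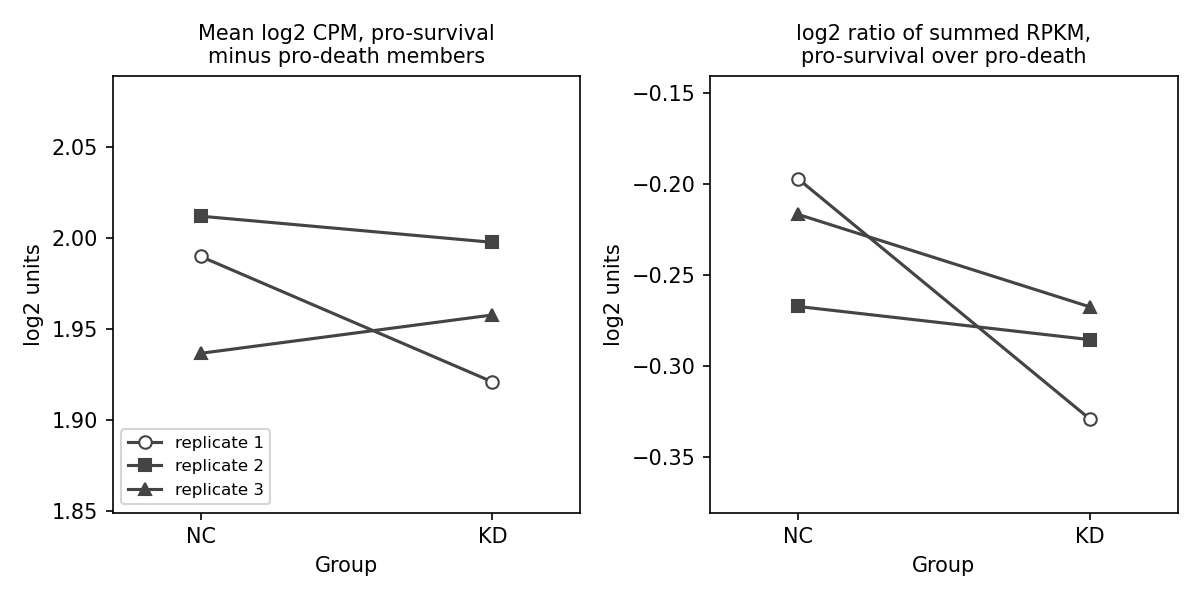
Balance of pro-survival and pro-death members in NC and KD, with a line for each replicate number (1 open circles, 2 squares, 3 triangles): mean log2 CPM difference (left) and log2 ratio of summed RPKM (right), both in log2 units on axes of the same span. On the left the lines run in both directions (-0.07, -0.01 and 0.02), and on the right all 3 fall (-0.13, -0.02 and -0.05).

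The shares of single genes in both sums overlapped between KD and NC. MCL1 made up 53.1% to 58.4% of the pro-survival RPKM in KD and 53.8% to 56.3% in NC, BCL2 31.4% to 36.1% and 33.4% to 36.9%, and BCL2L1 8.77% to 10.9% and 8.28% to 11.2%. On the pro-death side PMAIP1 and BID led. PMAIP1 made up 33.3% and 34.0% in the replicate 1 libraries of KD and NC and 23.2% to 26.4% in the other 4, and BAX 9.09% and 10.8% against 16.1% to 16.3%. BBC3 contributed 1.19% to 2.04%.

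Of 13 further family genes 7 passed the filter, and 0 passed the test with or without the block. BMF, a BH3-only gene outside the 10, stood at 24.6 ± 3.43 RPKM in NC and 24.3 ± 3.87 RPKM in KD (SD, n = 3 each), between PMAIP1 and BID in NC, and its blocked interval ran from -0.13 to 0.09. BNIP3, a hypoxia-induced mitophagy receptor, had the smallest p of these genes. It had 15.9, 17.7 and 19.7 CPM in KD and 14.9, 14.6 and 16.4 CPM in NC, higher in KD in all 3 pairs with overlapping groups (blocked log2 fold change 0.22, interval 0.02 to 0.42, edgeR adjusted p 0.981). BNIP3L (0.06 with the block), BCL2L12 (0.11), BCL2L13 (0.07), BCL2L2, the gene of BCL-w (-0.13), and BCL2L15 (-0.11) did not pass either.

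The other 6, BCL2A1, BCL2L10, BOK, BIK, HRK and BCL2L14, were near the floor of detection in the libraries numbered 2 and 3, with 0 to 6 counts each. In the replicate 1 libraries the same genes had 6 to 77 counts, HRK the most (77 in KD and 48 in NC), and BCL2L15, which passed the filter, had 59 and 63 counts there against 9 to 11 elsewhere. These libraries also had the large share of records outside annotated genes, whose part in these counts was not tested.

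The pathway around the family showed no detectable difference either. Over lists of apoptosome and mitochondrial proteins, caspases, IAPs, death receptors, transcription factors and protein-level regulators of the family, together with the 13 further family genes, 53 of 63 genes were tested. Of these, 0 passed at an edgeR adjusted p under 0.05 in either fit. Their median log2 fold change was -0.02 in both fits, where 73.6% had an interval inside a 1.5-fold change without the block and 88.7% with it (50.7% and 66.5% of all tested genes). With the block, 5 of the 53 had an unadjusted p under 0.05, a larger share than the 4.97% of all tested genes. The difference between these shares was not tested. Downstream of the mitochondria, 7 of 7 apoptosome and released proteins were tested, with HTRA2, a protease released from mitochondria, at 0.18 (unadjusted p 0.0285, edgeR adjusted p 0.928) and APAF1, the apoptosome scaffold, at -0.09 with the block. Of 5 caspase and nuclease genes tested, DFFB, the apoptotic nuclease, was at -0.22 and its inhibitor DFFA at 0.06. Of 6 IAP genes 4 were tested, with XIAP, a direct caspase inhibitor, at 0.04 and BIRC6 at -0.07 (interval -1.14 to 1.00).

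Upstream, 9 of 10 death receptor genes were tested, with FADD, the adaptor of the receptors, at 0.15 (unadjusted p 0.0452, edgeR adjusted p 0.996) and CFLAR, which restrains caspase 8, at -0.19 (unadjusted p 0.0169, edgeR adjusted p 0.867). Of 10 transcription factors 9 were tested, with ATF4 at 0.13 (unadjusted p 0.0146, edgeR adjusted p 0.833) and FOXO3, an activator of BCL2L11 and BBC3, at -0.09. All 12 protein-level regulators were tested, with PIM1, a kinase that phosphorylates BAD, at -0.10 and HUWE1, a ubiquitin ligase of MCL1, at -0.09 (interval -1.40 to 1.23). None of the named genes passed over all tested genes.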

How the data were processed

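Total RNA of 6 SEM libraries was compared, 3 KD and 3 NC. Each library has 1 deposited table of read counts per Ensembl gene, unnormalised whole numbers made by the authors with STAR 2.7.10a and HTSeq 0.11.1 on hg38, per the submitters' processing notes, which also list FastQC 0.11.8 and DESeq2. The sources used here do not give the annotation release or the strand setting. The 5 summary lines that name no gene entered neither library sizes nor tests.

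Counts were tested with edgeR 4.0.16 in R 4.3.3 (filterByExpr, TMM factors, robust quasi-likelihood fit, group as the only term, Benjamini-Hochberg adjustment, threshold 0.05), after a test on simulated data. The simulated replicate effects were alike in both groups. Estimates near the seeded change were required of the fits with and without the block, and recovery of changed genes only of the fit with the block. CPM values use library sizes over the tested genes times the TMM factor, and log2 CPM a prior count of 2. Gene positions and exon lengths come from GENCODE 29 (GRCh38), symbols from a gene name table, and promoter windows from RefSeq (GRCh38.p14). Alternatives were DESeq2 1.42.0, limma-voom 3.58.1, other size factors and filters, left-out libraries and the replicate block.

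Same-numbered KD and NC libraries deviated together from their group means, with correlations of 0.89, 0.62 and 0.61. Each was above a limit of 0.1, and on that limit the numbers were treated as pairs. KD 2 with NC 3 (0.59) and KD 3 with NC 2 (0.55) were above it too. Deviations within a group sum to 0 and replicate 1 stood apart in both groups. The check therefore cannot tell how replicates 2 and 3 pair, and the labels state no pairing. Libraries within a group differed by more than counting error, with a chi-square of 20.2 to 82.0 per degree of freedom. Members and lists were chosen with earlier results of these data known. All members were named, as were tested family genes and, per pathway list with no called gene, the 2 with the smallest p without the block.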

Additional observations from a re-analysis of the deposited data

How the results depend on the processing

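No BCL2 family member was called under any alternative tried (edgeR with or without the block, DESeq2, limma-voom, other size factors, no filter, mitochondrial and small RNA genes removed, or libraries left out), and the smallest adjusted p over members and settings was 0.601. Over all genes the count was 0 without the block, 29 with the replicate block, 1 with DESeq2, and 5, 119 and 73 with the block and without pair 1, 2 or 3. The replicate block changed no call of a member. The apoptosis pathway lists had 1 call, KMT2A, lower in KD with the block and without pair 2. Within replicate numbers 1, 2 and 3 its log2 difference was -0.02, 0.39 and -0.51, so the pair left out was the only one higher in KD.

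Small estimates changed sign. Leaving out a single library gave replicate 1 unequal weight in the groups. The median log2 fold change over all tested genes was then 0.108 and 0.103 without KD replicate 2 or 3. It was -0.105 and -0.0941 without NC replicate 2 or 3, and these fits tested 31398 to 31605 genes. Without KD or NC replicate 1 it was -0.0199 and -0.00231. The part of this shift in the ranges of the members was not tested. Leaving out single libraries gave log2 fold changes from -0.20 to 0.044 for BCL2, -0.21 to 0.12 for BCL2L1, -0.069 to 0.024 for MCL1, -0.24 to 0.22 for BAX, -0.088 to 0.035 for BAK1, -0.16 to 0.13 for BCL2L11, -0.046 to 0.14 for PMAIP1, -0.033 to 0.22 for BID, -0.10 to 0.024 for BAD and -0.31 to -0.06 for BBC3. With the replicate block and without pair 1, BCL2L1 stood at 0.0078, MCL1 at 0.00035, BAX at 0.017 and BCL2L11 at 0.0020. With the block and without pair 3, BAK1 stood at 0.037, BCL2L11 at 0.043 and PMAIP1 at -0.013.

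The balance, -0.02 between group means, was -0.04 to -0.0018 with single libraries left out, -0.067 as the log2 ratio of summed RPKM, -0.074 as that ratio with the longest transcript and -0.0997 as that ratio without MCL1. In the order of levels 6 of 10 ranks were unchanged with the longest transcript and 8 without replicate 1. Depth limits BBC3 most, with 68 to 107 counts a library.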
